A study of Mus musculus with 20 samples.

Results

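The transcriptome of sorted Flk1(+) mesoderm was compared with that of primitive endoderm (PE), both made from wild-type (WT) mouse ES cells of the J1 line, of the strain 129sv/Jae. All genes were members, each read by 1 probe set, so that 18194 genes were compared on 4 arrays out of 20 in the series, 2 of Flk1(+) cells and 2 of PE. Flk1(+) cells had been differentiated for 4 days on type IV collagen without LIF or dexamethasone (Dex), dissociated with trypsin and sorted by flow cytometry for surface Flk1 and PDGFRα. The cells of replicate 1 were of the parental J1 line, which carries no transgene, and those of replicate 2 were of clone J1G4.2. Clone J1G4.2 expresses Gata4GR, a fusion of Gata4 with the hormone-binding part of the glucocorticoid receptor, from the ubiquitously active CAG promoter. It was not activated in the Flk1(+) cells. PE came from clone J1G4.2 on both arrays, after 4 days with 100 nM Dex in ES cell medium with LIF, and the methods give no sort for it. By the methods, the medium was based on α-MEM for Flk1(+) cells and on GMEM for PE. Gata4GR activation, Dex, LIF, the medium, the substrate and the sort therefore all separated the groups and cannot be told apart. The arrays of a group are labelled biological replicates and, by the methods, came from 2 independent experiments, but J1G4.2 is 1 clone. As further references, WT ES cells of the series gave levels of the undifferentiated state. Cells with both alleles of Dnmt3a and Dnmt3b deleted (DKO, Dnmt3a-/-Dnmt3b-/-) gave the same pair of populations, with the parental line on Flk1(+) replicate 1 and 1 transgenic clone on the other 3 arrays.

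Mesoderm arises in the primitive streak, where epiblast cells under Nodal, Wnt and FGF signals switch on T-box and homeobox factors, lose E-cadherin contacts and migrate away. Flk1, encoded by Kdr, is the main receptor for VEGF and marks mesoderm with vascular, blood and cardiac potential. PE is the other early lineage considered here. It is the extraembryonic layer that the blastocyst segregates under Gata6 and Gata4, it lays down the basement membrane called Reichert's membrane as parietal endoderm, and it takes up maternal proteins through cubilin and megalin as visceral endoderm.

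Values are log2 signals after robust multi-array averaging (RMA), so that 1 unit is a 2-fold difference, and levels are compared only within a gene. Differences are Flk1(+) minus PE, with the standard error (SE) of the model. A gene was called at a Benjamini-Hochberg adjusted p of under 0.05 from limma, corrected over all genes, and a difference of at least 2-fold. Both PE arrays correlated at 0.996 over all genes and the Flk1(+) arrays at 0.979, against 0.941 to 0.950 between the populations. The Flk1(+) arrays were at least 2-fold apart at 880 genes, 782 of them higher on replicate 1, and the PE arrays at 20. Flk1(+) replicate 2 and PE replicate 1 shared the clone, the scan day and the chip lot, and the other 2 arrays were scanned on days of their own. Among markers of other cell types, Cdh5, Pecam1, Tal1 and Gata1 of endothelium and blood, Sox1 and Pax6 of neuroectoderm and Elf5 of trophoblast lay between 4.18 and 6.06 on all 4 arrays and were not called (-0.26 to 0.35). The trophoblast markers Gata3 (0.86) and Plac1 (-0.76) were not called either. Plac1 had 8.44 and 6.05 in Flk1(+) cells, 7.74 and 8.27 in PE and a mean of 5.68 in ES cells. Gata3 had 6.30 and 5.25 in Flk1(+) cells, 5.05 and 4.79 in PE and a mean of 4.09 in ES cells. Other genes of neuroectoderm and trophoblast were called and are named below.

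The 2 populations differed at 1898 of the 18194 genes, or 10.4% of those tested. Of these, 845 genes (4.64%) were higher in Flk1(+) cells and 1053 (5.79%) were lower. The balance of directions rested on the Flk1(+) arrays, with 1062 higher and 865 lower without Flk1(+) replicate 2 and 806 higher and 1401 lower without replicate 1. The median difference over all genes was 0.00. In these bulk samples, fewer cells of a type and less RNA per cell cannot be told apart. At a 4-fold difference 280 called genes were higher and 298 lower, and at 32-fold 14 were higher and 17 lower. The arrays of the groups did not overlap at any called gene, which is a weak criterion with 4 arrays, since 55% of all genes met it. Since no called gene had overlapping arrays, the pair that shared clone and scan day had to move the same way at all 1898. That pair was at least 2-fold apart at 1690 of them, but its arrays also entered the calls. An exact permutation test of 2 against 2 arrays cannot give a two-sided p below 0.333, so that calls rest on the variance pooled by limma.

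The receptors used for the sort behaved differently from each other. Kdr, the gene for Flk1, had signals of 11.96 and 11.75 in Flk1(+) cells, against 7.15 and 6.97 in PE, a difference of 4.79 ± 0.31 (limma adjusted p = 4.5e-08) that the sort itself selects. Pdgfra, the receptor for platelet-derived growth factor and the second antigen of the sort, read 11.90 and 12.83 in Flk1(+) cells, against 13.19 and 13.19 in PE and a mean of 5.92 in ES cells. It was thus far above ES cells in both populations and did not pass (-0.83 ± 0.23, adjusted p = 0.020). Its 3 probe sets were all lower in Flk1(+) cells, between -1.35 and -0.83, and the one used read the smallest difference. Gata6, the zinc-finger factor that specifies PE and is also made in cardiac mesoderm, did not pass either, with 9.89 and 10.82 in Flk1(+) cells, 11.15 and 11.27 in PE and a mean of 5.70 in ES cells. Gata4 was lower in Flk1(+) cells by 2.45 ± 0.20 on the log2 scale, with 7.99 and 8.12, against 10.25 and 10.76 in PE. The transgene-free Flk1(+) array and the array of the Gata4GR clone thus lay 0.13 apart at this probe set, and which part of Gata4 it reads was not examined.

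Factors of the primitive streak and nascent mesoderm formed the list with the highest median. Of 15 measured members 11 were higher in Flk1(+) cells and none was lower, with a median difference of 2.93, against 0.00 over all genes. Brachyury, planned as a further mesoderm marker, was not found under its symbol T and is not among these 15. Mixl1, a homeobox factor of the streak, had signals of 12.03 and 12.83 in Flk1(+) cells, against 5.69 and 6.12 in PE (6.52 ± 0.30, adjusted p = 1.1e-09). Eomes, a T-box factor required for the exit of mesoderm from the streak, had 13.56 and 13.91 in Flk1(+) cells, against 8.22 and 8.07 in PE (5.59 ± 0.33). Lhx1, a LIM homeobox factor, had 10.94 and 12.06 in Flk1(+) cells, against 4.74 and 4.69 in PE (6.79 ± 0.31). These 3 genes were more than 32-fold apart between the populations. Mesp1, a basic helix-loop-helix factor of the earliest cardiovascular progenitors, stood at 9.57 and 9.51 in Flk1(+) cells, against 6.21 and 6.44 in PE (3.22 ± 0.19). Evx1, Gsc, Tbx6, Fgf8, Sp5, Dll1 and Mesp2 were higher by 1.83 to 3.64. Cdx1, Cdx2, Msgn1 and Tcf15, factors of more posterior or later paraxial mesoderm, were not called.

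**Figure D1:**
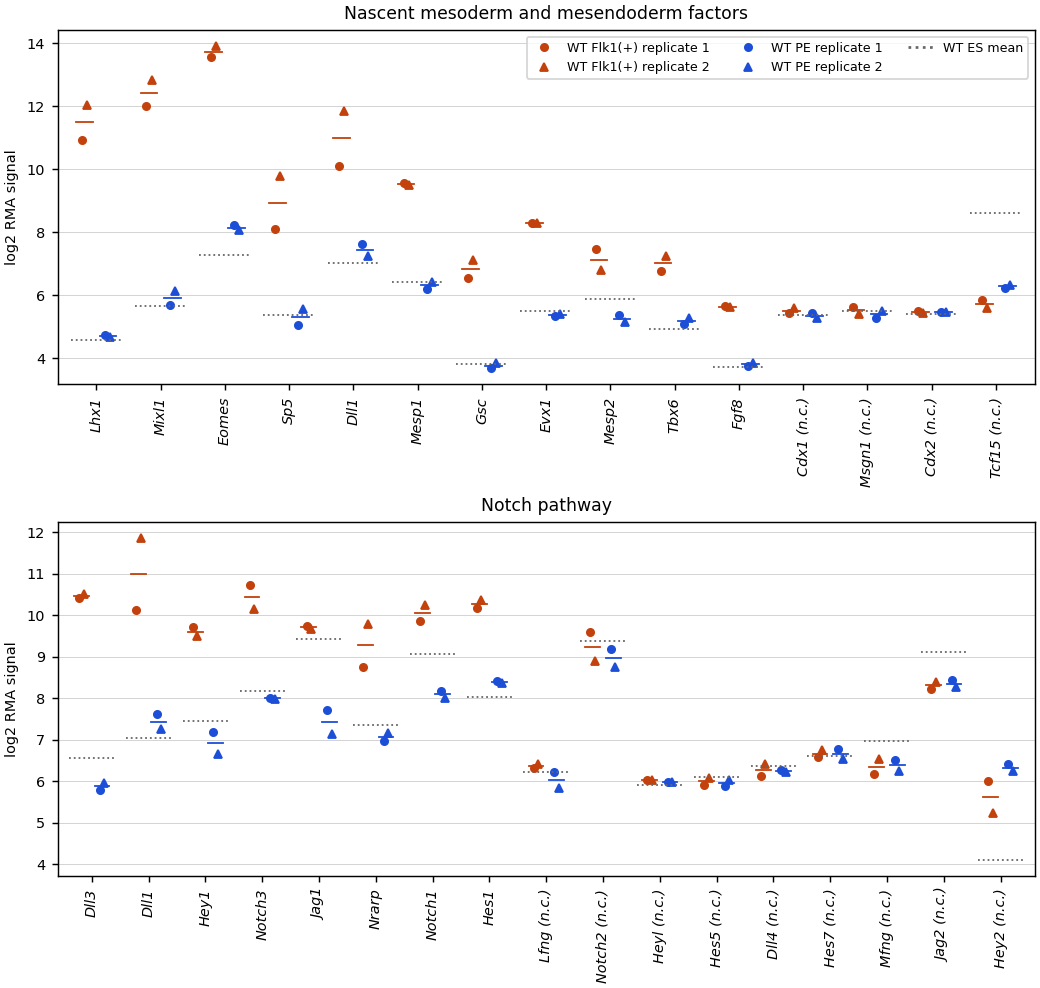
Log2 RMA signals of nascent mesoderm factors (top) and Notch pathway genes (bottom) on each array, with WT Flk1(+) cells in orange left of WT PE in blue, short lines for the mean of 2 arrays and dotted lines for the mean of WT ES cells. Genes marked n.c. were not called, and Mixl1, Eomes and Lhx1 lie more than 5 log2 units apart between the populations.

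In the list of the Wnt pathway, one of the signals of the streak, 10 of 25 measured members were higher in Flk1(+) cells, 1 was lower and 14 were not called (median 0.62). Among the ligands, Wnt3, which initiates the streak, had 6.84 and 6.42 in Flk1(+) cells, against 3.60 and 3.63 in PE (3.01 ± 0.23). Wnt5a, a ligand of the non-canonical branch, had 9.81 and 9.31 in Flk1(+) cells, against 4.24 and 4.26 in PE (5.31 ± 0.48). Rspo3, a secreted amplifier of Wnt signals, had 11.27 and 10.30 in Flk1(+) cells, against 5.85 and 5.98 in PE (4.87 ± 0.42). Only Wnt11 among these members was lower in Flk1(+) cells, with 6.64 and 6.99, against 8.49 and 8.15 in PE. The receptors Fzd1, Fzd2 and Fzd7 were higher by 2.90, 2.68 and 1.81. The pathway targets Axin2 and Lef1 were higher by 2.34 ± 0.25 and 2.47 ± 0.30, and the secreted antagonist Frzb by 2.42 ± 0.43. Dkk1, another secreted antagonist, was not called, with 9.95 and 8.73 in Flk1(+) cells, 9.30 and 9.16 in PE and a mean of 4.95 in ES cells. The lowest differences over the probe sets of a gene were 0.31 for Wnt5a, 0.46 for Rspo3, 0.27 for Fzd1 and 0.28 for Axin2. They were 2.15 for Fzd2, 1.52 for Lef1 and 1.43 for Frzb.

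Notch genes behaved as a divided list: 8 of 17 measured members were higher, none was lower, and the median of the list was 0.33. The ligand Dll3 had 10.43 and 10.52 in Flk1(+) cells, against 5.79 and 5.96 in PE (4.60 ± 0.23, adjusted p = 2.6e-09). The ligand Dll1 had 10.12 and 11.86 in Flk1(+) cells, against 7.62 and 7.26 in PE. Jag1, the receptors Notch1 and Notch3, and the targets Hes1, Hey1 and Nrarp were higher by 1.88 to 2.68. Dll4, Jag2, Notch2, Hes5 and Hes7 were not called, so that the endothelial ligand Dll4 and the somite oscillator Hes7 were not among the genes that differed.

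The list of FGF and ERK feedback genes held genes that the ERK kinase switches on and that restrain it, besides other FGF pathway genes. Of its 11 measured members 6 were higher and 1 was lower (median 1.07). The lower one, Fgfbp3, whose name is that of an FGF-binding protein, was at -1.60, and at -0.86 without PE replicate 1. Dusp6, an ERK phosphatase, had 10.53 and 11.91 in Flk1(+) cells, against 7.94 and 7.72 in PE (3.39 ± 0.41). Il17rd, a membrane antagonist of FGF signalling also called Sef, had 11.71 and 12.17 in Flk1(+) cells, against 9.31 and 8.54 in PE (3.01 ± 0.30). Spred1, an inhibitor of Ras signalling, was higher by 2.85 ± 0.19 and Dusp5 by 1.65 ± 0.19. Of receptor tyrosine kinases and their ligands, 8 of 25 were higher and 2 lower, and without Flk1(+) replicate 2 the 10 calls were 17. Fgf5 was higher by 3.76 ± 0.50, Vegfc, a ligand of the VEGF family, by 3.68 ± 0.33 and Fgfr1 by 2.73 ± 0.26. The kinases lower in Flk1(+) cells were Fgfr3, with 6.82 and 5.81, against 9.57 and 9.33 in PE, and Kit, the stem cell factor receptor, with 7.59 and 7.74, against 10.81 and 10.66 in PE.

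Of the Nodal and activin list, 4 of 14 measured members were higher and 1 was lower (median 0.54). Nodal itself had 11.12 and 11.66 in Flk1(+) cells, against 8.90 and 8.90 in PE and a mean of 11.85 in ES cells, so that PE was the population far below ES cells. Its co-receptor Tdgf1, or Cripto, had 13.04 and 13.77 in Flk1(+) cells, against 9.91 and 10.28 in PE and 13.10 in ES cells. The antagonist Lefty2 was higher by 1.81 ± 0.40. The BMP list was split, with 7 of 20 higher and 3 lower (median 0.26), and its 10 calls were 6 without PE replicate 1. Msx1, a homeobox target of BMP, was higher by 3.09 ± 0.23 and Bambi, a decoy receptor, by 2.46 ± 0.25. Bmp6 was lower by 2.29 ± 0.34 and Bmper, a secreted BMP-binding protein, by 1.78 ± 0.38. Bmp2 was not called, with 10.54 and 9.61 in Flk1(+) cells, 9.37 and 9.66 in PE and a mean of 4.14 in ES cells. Bmp4 had 10.95 and 7.84 in Flk1(+) cells, against 7.06 and 6.97 in PE, and its call rested on Flk1(+) replicate 1: the difference of 2.38 was 0.82 without that array (adjusted p = 0.28), and without PE replicate 1 or 2 it was 2.42 or 2.33 and did not pass. At the probe set used, the call of Bmp5 depended on the same arrays, with 1.60 over all arrays and 0.55 without Flk1(+) replicate 1. The 3 probe sets of Bmp5 were all higher in Flk1(+) cells, by between 0.88 and 4.90.

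Genes of cell adhesion and migration included the largest increases of the comparison. Aplnr, the receptor for apelin and Elabela, which guides migrating mesoderm, had 12.89 and 13.21 in Flk1(+) cells, against 4.26 and 4.09 in PE and a mean of 3.82 in ES cells. This increase of 8.87 ± 0.23 (adjusted p = 9.7e-12) was the largest of all genes. Cdh11, a cadherin of mesenchyme, followed with 10.88 and 11.38 in Flk1(+) cells, against 3.53 and 3.46 in PE (7.63 ± 0.25). Cxcr4, the receptor for the chemokine Cxcl12, had 8.58 and 8.50 in Flk1(+) cells, against 4.00 and 3.83 in PE (4.62 ± 0.16). Their means in ES cells were 3.82, 3.68 and 4.20, close to the PE arrays. Of the chemokine, apelin and guidance list, 10 of 24 measured members were higher and none lower (median 1.19). Plxna2, a semaphorin receptor, was higher by 5.16 ± 0.42, Ackr3, a scavenger of Cxcl12, by 3.43 ± 0.39, and the repulsive ligand Slit3 by 2.07 ± 0.21. Apela, which encodes Elabela, was not called, with 7.47 and 5.37 in Flk1(+) cells, 7.93 and 7.82 in PE.

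The mesenchymal list had 7 of 14 members higher and none lower (median 1.11). Cdh2, or N-cadherin, had 11.50 and 12.26 in Flk1(+) cells, against 7.70 and 6.84 in PE (4.61 ± 0.41). Fn1, the fibronectin gene, had 13.90 and 14.09 in Flk1(+) cells, against 9.84 and 9.95 in PE and a mean of 12.07 in ES cells (4.10 ± 0.18). Zeb2 and Twist1, transcription factors of mesenchymal transition, were higher by 2.93 ± 0.34 and 2.43 ± 0.34. Itga8, an integrin subunit of mesenchyme, was higher by 4.85 ± 0.31 and Itgb5 by 1.90 ± 0.28, and the other 13 of the 15 integrin genes were not called. Without Flk1(+) replicate 2 these 2 integrin calls were 5, and without replicate 1 they were 4. Of interstitial matrix genes 6 of 21 were higher and 2 lower. Has2, which makes hyaluronan, was higher by 3.74 ± 0.42 and Fbn2, a fibrillin, by 3.41 ± 0.28, whereas Ccn2 was lower by 3.62 ± 0.54. The epithelial list had no member higher and 4 of 25 lower (median -0.37), and its calls numbered 12 without Flk1(+) replicate 1, 7 without replicate 2 and 1 without PE replicate 1. Esrp2, an epithelial splicing regulator, was lower by 2.23 ± 0.24 in Flk1(+) cells. The other 3, Cldn6, St14 and Spint2, lost the call without Flk1(+) replicate 2 (-1.47, -0.79 and -0.89) and without PE replicate 1 (-2.44, -1.57 and -1.04), and Spint2 also without PE replicate 2 (-1.09).

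Genes of lateral plate, heart, vessel and blood were less uniform. In the lateral plate and heart field list 6 of 18 measured members were higher and 2 lower (median 0.68), and these 8 calls were 5 without PE replicate 2. Meis2, a homeobox factor, had 10.00 and 8.78 in Flk1(+) cells, against 7.49 and 6.82 in PE (2.23 ± 0.34). Its relative Meis1 went the other way, with 6.84 and 5.12 in Flk1(+) cells, against 9.23 and 8.96 in PE (-3.12 ± 0.39). Foxc1, a forkhead factor of mesoderm, was higher by 2.03 ± 0.27 and Hand2, a heart factor, by 1.91 ± 0.39, with 1.14 left without Flk1(+) replicate 1. Of the 3 probe sets of Hand2 only 2 were higher (-0.13 to 1.91). Hand1 and Foxf1 were not called, with 8.002 and 7.31 for Hand1 and 6.99 and 5.90 for Foxf1 in Flk1(+) cells, against 6.69 and 7.04, and 5.99 and 5.97, in PE. Etv2, an ETS factor that commits mesoderm to vessel and blood, had 9.99 and 10.74 in Flk1(+) cells, against 6.64 and 6.55 in PE (3.77 ± 0.32). Lmo2, a partner of blood factors, was higher by 2.39 ± 0.33. Of the 25 genes of the vascular and blood list these were the 2 higher ones, and 2 were lower. Tek, the angiopoietin receptor Tie2, had 5.02 and 4.75 in Flk1(+) cells, against 10.19 and 9.30 in PE (-4.87 ± 0.34), and Runx1, a blood factor, was lower by 1.27 ± 0.20. In the cardiac muscle list 1 of 15 was higher and 4 were lower (median -0.07). The higher one was the atrial myosin light chain Myl7 (2.54 ± 0.22). Nppb, a natriuretic peptide, was lower in Flk1(+) cells with 4.78 and 5.44, against 9.62 and 8.87 in PE. The calcium release channel Ryr2 and the myosin heavy chain Myh7 were lower by 2.81 ± 0.23 and 2.25 ± 0.27. Tnnc1, a troponin, was lower by 2.03, and the call was lost without Flk1(+) replicate 2 (-1.26) and without PE replicate 2 (-1.78).

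The most uniform decrease was that of basement membrane and parietal endoderm genes. Of 20 measured members 18 were lower in Flk1(+) cells and none was higher, with a median of -3.40, against 0.00 over all genes. Lama1, the laminin α1 chain, had 8.01 and 6.73 in Flk1(+) cells, against 13.43 and 13.50 in PE (-6.09 ± 0.38, adjusted p = 4.0e-08). Its partner chains Lamb1 and Lamc1 were lower by 2.52 ± 0.25 and 4.53 ± 0.39. Col4a1 and Col4a2, the chains of type IV collagen, were lower by 2.55 ± 0.18 and 3.89 ± 0.29. For Col4a1 the Flk1(+) arrays, at 11.92 and 11.87, were nonetheless above ES cells at 8.75, and the PE arrays stood at 14.51 and 14.38. The collagen-modifying enzymes of the list moved together: the prolyl hydroxylases P4ha1 and P4ha2 and the lysyl hydroxylases Plod1 and Plod2 were lower by 2.87 to 3.86, and the chaperone Serpinh1 by 2.68 ± 0.19. Srgn, a proteoglycan core protein, had 6.43 and 5.56 in Flk1(+) cells, against 12.52 and 12.82 in PE (-6.68 ± 0.28). Lama5 and Hspg2 were not called. Fst and Thbd lost the call without single arrays: the difference of Fst, -1.22 over all arrays, was -0.92 without Flk1(+) replicate 1 (adjusted p = 0.15), -1.23 without PE replicate 1 and -1.20 without PE replicate 2. That of Thbd, -1.78 over all arrays, was -0.83 without Flk1(+) replicate 2 (adjusted p = 0.061) and -1.57 without PE replicate 1. Nid1, at -3.75, kept its call but was at -2.40 without Flk1(+) replicate 2.

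Of 13 PE transcription factors 7 were lower in Flk1(+) cells and 1 was higher (median -1.29). Sox7 had 5.46 and 5.38 in Flk1(+) cells, against 11.52 and 11.39 in PE (-6.03 ± 0.23, adjusted p = 2.0e-10), and the Flk1(+) values were close to the ES mean of 5.43. Its relative Sox17 had 7.73 and 4.43 in Flk1(+) cells, against 12.91 and 12.80 in PE (-6.78 ± 0.73), so that the Flk1(+) arrays were 3.30 apart. Foxa2, a forkhead factor of endoderm, was lower by 3.82 ± 0.45 and Foxq1 by 2.56 ± 0.41. Foxa1 was the member that was higher, by 1.32 ± 0.27. Hnf4a, a nuclear receptor of visceral endoderm, was lower by 1.29 ± 0.20, but another of its 4 probe sets read 0.16.

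Among the receptors and adaptors of endocytosis in visceral endoderm, 11 of 15 measured members were lower and 1 higher (median -1.996). Cubn, or cubilin, had 5.27 and 4.67 in Flk1(+) cells, against 11.91 and 12.67 in PE, and this decrease of 7.32 ± 0.41 on the log2 scale was the largest of all genes. Its membrane anchor Amn was lower by 3.40 ± 0.27 and its co-receptor Lrp2, or megalin, by 3.89 ± 0.61, with Flk1(+) arrays at 8.38 and 5.62 and a difference of -2.51 without Flk1(+) replicate 2. Dab2, a clathrin adaptor of these receptors, had 8.77 and 6.02 in Flk1(+) cells, against 13.37 and 13.57 in PE (-6.08 ± 0.54, adjusted p = 1.2e-06). The receptor chaperone Lrpap1 and the motor proteins Myo5b and Myo6 were lower by 3.67 to 4.23. Lrp1, a relative of megalin, was the member that was higher in Flk1(+) cells, with 8.74 and 7.76, against 6.16 and 5.998 in PE.

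**Figure D2:**
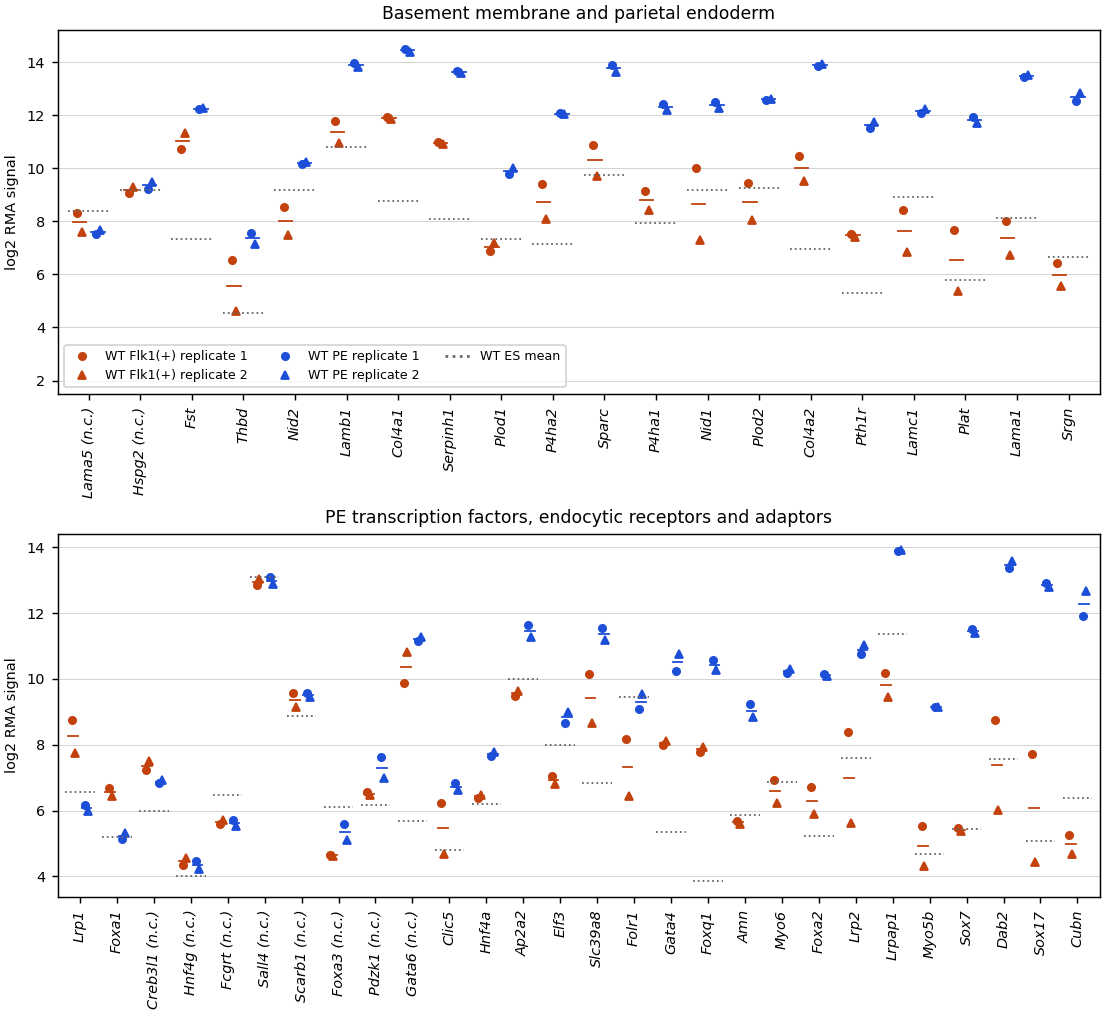
Log2 RMA signals of basement membrane genes (top) and of PE transcription factors with endocytic receptors and adaptors (bottom) on each array, with WT Flk1(+) cells in orange left of WT PE in blue, short lines for group means and dotted lines for the mean of WT ES cells. Genes marked n.c. were not called, and the 2 Flk1(+) arrays lie apart for Nid1, Dab2, Lrp2 and Sox17 while the PE arrays do not.

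Secreted products of later visceral endoderm differed less at the probe sets used. Of 16 measured carriers 2 were lower, the calcium-binding S100g (-2.89 ± 0.20) and Mttp, which loads lipoproteins (-1.92 ± 0.17), and the median was -0.24. The highest member read -0.01. Ttr was not called at the probe set used (-0.95), but its 4 probe sets were all lower, between -4.55 and -0.95. Without PE replicate 1 this list had 4 calls. The list of anterior visceral endoderm had 4 of 10 members higher in Flk1(+) cells and none lower. These were Lhx1, Gsc, Otx2 and Amot, of which Lhx1, Gsc and Otx2 are also made by the epiblast or streak. Otx2 had 10.16 and 11.83 in Flk1(+) cells, against 7.24 and 7.44 in PE and a mean of 9.99 in ES cells. Proteases and inhibitors were mostly lower, 9 of 17 with 3 higher (median -2.08). The inhibitors Timp1, Timp2 and Timp3 were lower by between 2.30 and 2.77, Spink1 by 6.10 ± 0.44 and the coagulation regulator Tfpi by 2.78 ± 0.30. Plat, or tissue plasminogen activator, had 7.69 and 5.37 in Flk1(+) cells, against 11.94 and 11.70 in PE. The other probe set of Plat read a difference of -0.60. The matrix-degrading Mmp2 and its activator Mmp14 went the other way, higher by 4.05 ± 0.24 and 2.702 ± 0.30. In the lysosome list 6 of 14 were lower and 2 higher (median -0.58), and the 8 calls were 5 without Flk1(+) replicate 2. It was led by the cathepsin Ctsh, with 6.53 and 5.95 in Flk1(+) cells, against 10.46 and 10.89 in PE.

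Upstream sequence was examined for genes that differed. RefSeq promoters on GRCm38.p6, from 250 bases before to 50 after a start site, were found for 14453 of the 18194 genes. Letters searched were on both strands. AGATAA or TGATAA, letters that GATA factors bind, stood in 12.6% of called higher genes with a promoter, in 13.3% of called lower genes and in 15% of all. GGTGTGA, a T-box core, stood in 3.88% of higher, 4.32% of lower and 4.37% of all genes, and ACAATGG or ACAATAG, Sox cores, in 4.5%, 5.48% and 5.15%. Of these 6 shares only that of Sox cores in lower genes was above the share over all genes. Promoters of 3 genes described above are shown because a streak factor, a Wnt target and a PE adaptor hold such letters. Matches are in capitals, as TTATCT or TCACACC where they read AGATAA or GGTGTGA on the other strand.
Mesp1 at chr7:79793541-79793840, minus strand, 1 T-box match: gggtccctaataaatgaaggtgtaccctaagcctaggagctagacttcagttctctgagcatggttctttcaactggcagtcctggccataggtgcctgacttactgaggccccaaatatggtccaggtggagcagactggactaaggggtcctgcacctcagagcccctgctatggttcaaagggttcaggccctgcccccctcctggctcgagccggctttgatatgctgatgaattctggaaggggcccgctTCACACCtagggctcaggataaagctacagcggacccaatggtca
Lef1 at chr3:131156044-131156343, plus strand, 2 GATA matches: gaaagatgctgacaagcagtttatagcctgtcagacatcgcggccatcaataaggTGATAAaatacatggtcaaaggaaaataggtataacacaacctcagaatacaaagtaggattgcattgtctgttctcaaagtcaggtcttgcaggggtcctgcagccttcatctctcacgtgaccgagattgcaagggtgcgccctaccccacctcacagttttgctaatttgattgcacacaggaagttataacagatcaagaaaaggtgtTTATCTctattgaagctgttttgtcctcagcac
Dab2 at chr15:6299539-6299838, plus strand, 2 GATA matches: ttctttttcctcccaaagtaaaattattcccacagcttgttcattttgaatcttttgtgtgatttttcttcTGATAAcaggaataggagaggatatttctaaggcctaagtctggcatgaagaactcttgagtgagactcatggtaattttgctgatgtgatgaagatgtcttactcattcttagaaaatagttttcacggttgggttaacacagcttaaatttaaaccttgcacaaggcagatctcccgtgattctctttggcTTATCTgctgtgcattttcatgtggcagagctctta
Lef1, higher in Flk1(+) cells, and Dab2, lower there, thus both had a TGATAA and, on the other strand, an AGATAA. A match is a run of letters and was not tested as a binding site.

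Pluripotency genes were lower in Flk1(+) cells than in PE at 16 of 26 measured members and higher at 1, with a median of -1.60. Levels of ES cells place these differences. Zfp42, or Rex1, had 8.87 and 6.75 in Flk1(+) cells, against 11.15 and 11.19 in PE and a mean of 13.61 in ES cells (-3.36 ± 0.44). Fbxo15 had 7.56 and 6.34 in Flk1(+) cells, against 11.96 and 11.93 in PE and 12.82 in ES cells (-4.99 ± 0.34). Dnmt3l, a cofactor of DNA methylation, had 7.20 and 6.12 in Flk1(+) cells, against 11.36 and 10.89 in PE and 12.35 in ES cells. Klf4 was lower by 1.97 ± 0.18 and Dppa5a by 2.42 ± 0.14. The core factors did not follow: Pou5f1, with 8.42 and 8.82 in Flk1(+) cells, 9.34 and 9.45 in PE and a mean of 12.25 in ES cells, was not called, and neither was Nanog, with 7.45 and 7.63 in Flk1(+) cells, 7.53 and 6.75 in PE and 11.23 in ES cells. Sox2 had 9.11 and 6.22 in Flk1(+) cells, against 9.67 and 9.66 in PE, and its call was lost without Flk1(+) replicate 2 (-0.56, adjusted p = 0.33) and without either PE array (-1.995 and -2.01). The call of Dppa4 was lost without the same 3 arrays, at -0.66 without Flk1(+) replicate 2. Of 18 germline genes 5 were lower and none higher, with 3 calls left without Flk1(+) replicate 2 or PE replicate 2. They were led by the X-linked homeobox gene Rhox5, with 8.67 and 6.002 in Flk1(+) cells, against 12.21 and 12.24 in PE and 8.86 in ES cells. LIF was in the medium of PE only. Of 11 genes of its pathway, Lif itself was lower by 2.69 ± 0.31. Its receptor Lifr was lower by 1.47, and the call was lost without Flk1(+) replicate 2 (-0.84) and without PE replicate 1 (-1.30). Socs2, a feedback inhibitor of cytokine receptors, was the 1 member that was higher, with 10.66 and 11.91 in Flk1(+) cells, against 7.94 and 8.08 in PE.

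Immediate early genes, which transcribe within minutes of a stimulus and also of tissue dissociation, were higher at 9 of 19 members and lower at 1 (median 0.96). Fos had 13.96 and 13.67 in Flk1(+) cells, against 8.80 and 7.998 in PE (5.42 ± 0.22). Fosb had 10.62 and 10.63 in Flk1(+) cells, against 5.12 and 5.06 in PE (5.54 ± 0.24), and Egr1 had 12.53 and 12.58, against 7.65 and 7.48 in PE. Egr2 was higher by 4.63 ± 0.31, Ier5 by 2.60 ± 0.23 and Myc by 1.95 ± 0.26, whereas Ier3 was lower by 1.38 ± 0.35. Only the Flk1(+) cells were sorted by the methods, and how PE was harvested for these arrays was not given, so that for these genes the handling and the cell type cannot be told apart. Of 13 heat shock and stress genes none was higher and 1 was lower, with 3 calls without Flk1(+) replicate 2 and 2 without replicate 1 or PE replicate 1. The lower one, Cryab, had 10.41 and 5.77 in Flk1(+) cells, against 12.80 and 12.87 in PE, and its difference of -4.75 was -7.07 without Flk1(+) replicate 1 and -2.43 without replicate 2. Another probe set of Cryab read 0.04.

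Imprinted genes, expressed from 1 parental allele, were higher in Flk1(+) cells at 10 of 20 measured members and lower at none (median 1.18). Phlda2, a growth-restraining gene of the placenta, had 10.49 and 10.54 in Flk1(+) cells, against 6.73 and 7.0003 in PE and a mean of 8.91 in ES cells (3.65 ± 0.15, adjusted p = 3.5e-10). Cdkn1c, an inhibitor of cyclin-dependent kinases, had 11.26 and 10.12 in Flk1(+) cells, against 6.94 and 7.23 in PE and 9.43 in ES cells (3.61 ± 0.32). For both genes ES cells lay between the populations. Zdbf2, Grb10 and Peg3 were higher by 2.17 ± 0.20, 2.13 ± 0.19 and 1.35 ± 0.18. At Peg3 only 3 of 5 probe sets were higher (-0.24 to 1.80). Meg3, a maternally expressed long RNA, was higher by 2.42 ± 0.60, and the call was lost without Flk1(+) replicate 1 (2.14, adjusted p = 0.057) and without PE replicate 1 (2.21, adjusted p = 0.077). Cell cycle genes differed at 4 of 23 members, and at 7 without Flk1(+) replicate 1: Ccnd1, or cyclin D1, was higher by 2.98 ± 0.31 together with Cdkn1c, and Cdkn1a, or p21, was lower by 2.44 ± 0.45 together with Ccnd2, whose call was lost without Flk1(+) replicate 2 (-0.99) and without PE replicate 1 (-0.93).

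Dex binds the endogenous glucocorticoid receptor as well as the fusion protein, and only PE had received it. Targets of the glucocorticoid receptor did not move one way: 3 of 19 were higher in Flk1(+) cells, 4 were lower and the median was 0.04, and the 7 calls were 4 without Flk1(+) replicate 2 and 3 without PE replicate 2. The phosphatase gene Dusp1, also an immediate early gene, had 11.89 and 11.77 in Flk1(+) cells, against 9.99 and 9.86 in PE (1.90 ± 0.27), and Klf15 was higher by 1.80 ± 0.32. Fkbp5, a chaperone of the receptor, was higher by 1.14 ± 0.38, but its call was lost without any 1 of the 4 arrays (1.06 to 1.23). The metallothionein genes Mt1 and Mt2 were lower by 1.66 and 1.32, and both calls were lost without Flk1(+) replicate 2 (-0.91 and -0.83) and without PE replicate 2 (-1.40 and -1.19). At Mt1 another probe set read 0.12.

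The remaining lists had few calls, each to be read against 4.64% of all genes higher and 5.79% lower. Hox genes had 1 of 18 higher, Hoxb1 (2.81 ± 0.46, and 1.69 without Flk1(+) replicate 1), and 2 calls without Flk1(+) replicate 2. Among 20 genes of the secretory pathway 1 was lower, with 2 calls without Flk1(+) replicate 1. Of 9 genes of the DNA methylation machinery 2 were lower, Dnmt3l and Mbd2, of which Mbd2 (-1.21) was at -0.57 without Flk1(+) replicate 2. Dnmt3a and Dnmt3b were not called, but the 5 probe sets of Dnmt3a were all higher in Flk1(+) cells, by between 0.18 and 1.86. Glycolysis and hypoxia had 1 higher and 2 lower of 18, and 7 calls without Flk1(+) replicate 1. Of the 3, Ankrd37 (-1.14) lost its call without Flk1(+) replicate 2 (-0.87) and without PE replicate 1 (-0.94). Cholesterol synthesis had 3 higher and 1 lower of 15, and 1 call in all without Flk1(+) replicate 2 or PE replicate 1 and 2 without PE replicate 2. The 3 higher genes, Idi1, Fdps and Nsdhl, were at 0.77, 0.69 and 0.83 without Flk1(+) replicate 2 and none kept its call. None of these genes kept it without PE replicate 1 either (1.19, 0.86 and 0.702), and the lower one, Insig1, lost it without PE replicate 2 (-1.53). Caveolins and cytoskeletal linkers had 2 higher and 1 lower of 14, and all 3 calls depended on single arrays. Cav1, at 2.04, was at 0.73 without Flk1(+) replicate 1 and lost the call without PE replicate 1 (1.97). Cavin1, at 1.43, was at 0.97 without Flk1(+) replicate 1, and another probe set read -0.14. Anxa2, at -1.66, was at -0.62 without Flk1(+) replicate 2, lost the call without PE replicate 1 (-1.47) or 2 (-1.85), and read 0.14 at another probe set. Without Flk1(+) replicate 1 or 2, or PE replicate 1 or 2, the caveolin list had 5, 7, 1 and 2 calls. Interferon-related genes had 3 of 15 higher, Ifitm1 (2.44 ± 0.17), Ifitm2 (1.58 ± 0.23) and Ifitm3, and 7 calls without Flk1(+) replicate 2. Ifitm3, at 1.90, was at 0.88 without Flk1(+) replicate 1 and lost the call without PE replicate 1 (1.59). Retinoid genes had 2 higher and 1 lower of 13. Of these, Crabp2 (2.37) lost its call without Flk1(+) replicate 1 (1.21) and PE replicate 2 (2.25), Stra6 (-1.09) without Flk1(+) replicate 2 (-0.98) and PE replicate 2 (-0.705), and Crabp1 (2.18) was at 1.41 without Flk1(+) replicate 1. Smooth muscle had 2 higher and 2 lower of 12, and 2 calls without PE replicate 1 and 1 without PE replicate 2. Its higher genes, Acta2 (1.37) and Tpm2 (1.01), were at 0.66 and 0.399 without Flk1(+) replicate 1 and, with any 1 array left out, passed only without Flk1(+) replicate 2. Csrp1 (-1.38) lost its call without Flk1(+) replicate 2 (-0.94) and PE replicate 2 (-1.07), and Tagln2 (-2.41) kept it without any 1 array. Neuroectoderm had 1 higher, Zic2 (2.01), and 2 lower, Tubb3 (-2.35) and Zic1 (-1.43), of 12. Gut endoderm also had 1 higher and 2 lower of 12. The trophoblast gene called higher was Tfap2c (1.89). Trophoblast had 1 higher of 11, with 5 calls without Flk1(+) replicate 2 and 2 without replicate 1.

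**Figure D3:**
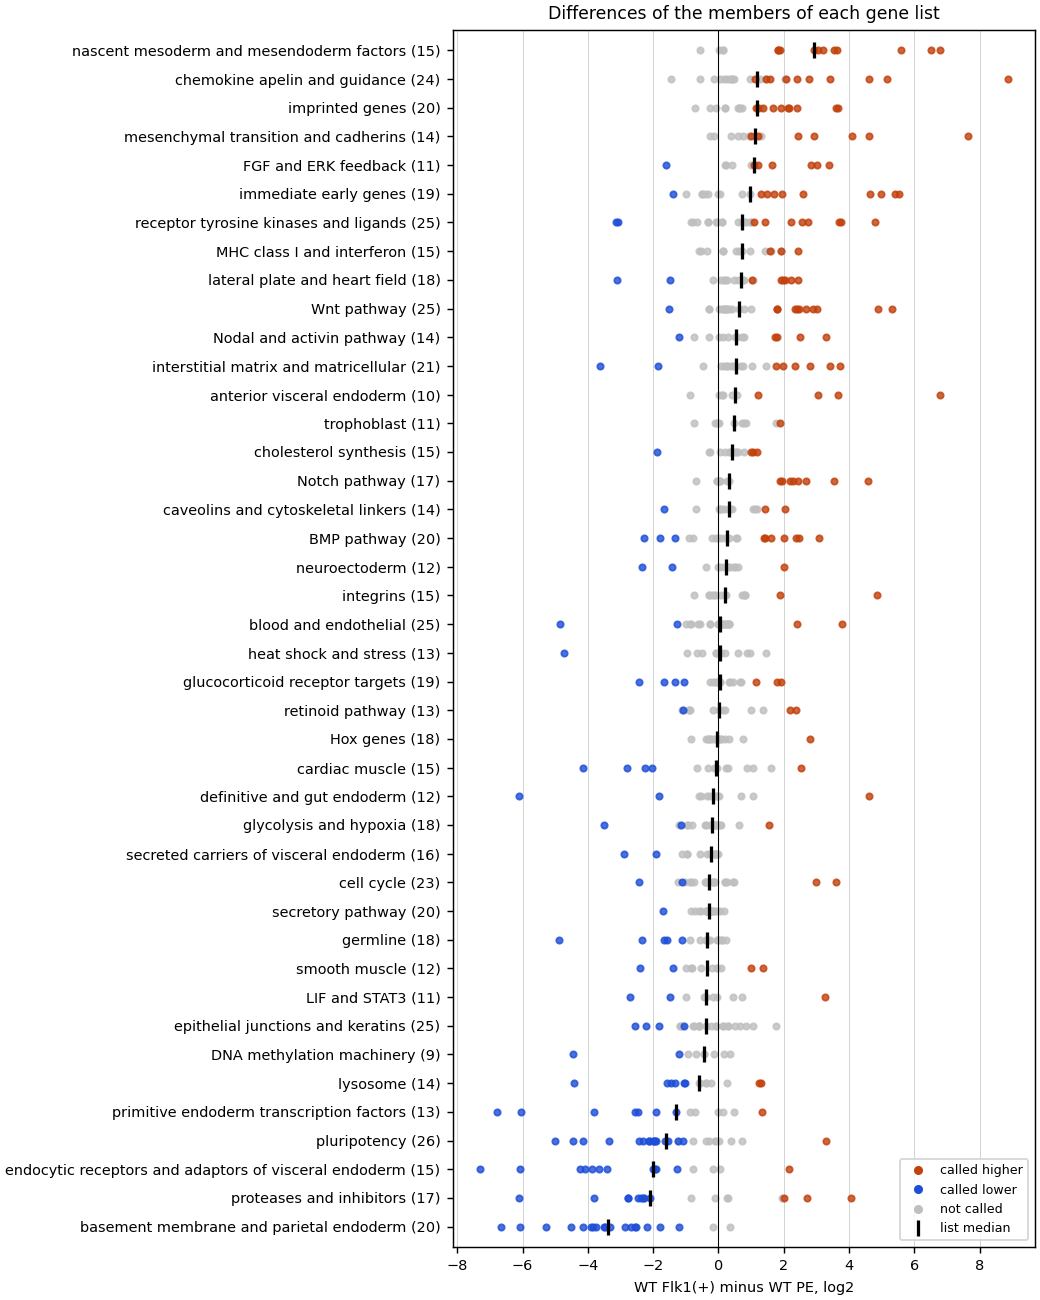
Differences of the measured members of 42 gene lists, WT Flk1(+) minus WT PE on the log2 scale, with 1 dot per gene, orange for called higher, blue for called lower, grey for not called, a black bar for the list median and the number of measured members in brackets. The medians run between 2.93 for nascent mesoderm factors and -3.40 for basement membrane genes.

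Several of the largest differences were outside the lists. Among the increases, Asb4, an ankyrin-repeat gene, had 11.21 and 9.80 in Flk1(+) cells, against 3.65 and 4.02 in PE. Gas1, a co-receptor for hedgehog ligands, had 12.24 and 12.79 in Flk1(+) cells, against 6.85 and 6.77 in PE. Pcdh8, a protocadherin of paraxial mesoderm, was higher by 5.63 ± 0.32, the sialyltransferase St6gal1 by 5.09 ± 0.15 and Klhl6 by 5.05 ± 0.46. Among the decreases, Epas1, the hypoxia-inducible factor 2α, had 8.23 and 5.52 in Flk1(+) cells, against 13.50 and 13.23 in PE (-6.49 ± 0.58). Pga5, a pepsinogen gene, had 5.50 and 5.50 in Flk1(+) cells, against 11.52 and 11.95 in PE (-6.24 ± 0.22). Dpp4, a cell surface peptidase, was lower by 5.21 ± 0.23, Serpinb6c by 5.93 ± 0.28, Trap1a by 5.92 ± 0.55, Ankrd33b by 5.70 ± 0.21 and Dram1 by 5.69 ± 0.35. Other probe sets of the same gene read much less at Gas1 (0.11), St6gal1 (0.33), Ankrd33b (-0.23) and Dpp4 (-0.29). At Asb4, Pcdh8 and Epas1 the smallest readings were 3.87, 5.63 and -3.33.

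ES cells were used to place the called genes, without a test, since their arrays were scanned on another day. Of the 845 genes higher in Flk1(+) cells, 381 were at least 2-fold above ES cells in Flk1(+) cells and within 2-fold of them in PE. Another 185 were at least 2-fold below ES cells in PE only, as Nodal was, and 51 were above ES cells in Flk1(+) cells and below them in PE. Of the 1053 lower genes, 508 were above ES cells in PE only, 187 were below them in Flk1(+) cells only and 33 were both. Among the genes of the lists, 32 were at least 4-fold above ES cells in both populations. Of these, 14 were not called between the populations, 15 were lower in Flk1(+) cells and 3 were higher. Besides Pdgfra, Gata6, Bmp2 and Dkk1, the genes not called included Nrp1, a co-receptor for VEGF and semaphorins, with 11.68 and 10.67 in Flk1(+) cells, 10.29 and 10.09 in PE and 4.34 in ES cells. They also included Cyp26a1, which degrades retinoic acid, with 12.63 and 12.84 in Flk1(+) cells, 11.67 and 11.80 in PE and 6.99 in ES cells.

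The 2 Flk1(+) arrays differed more than the PE arrays, and markers of other states moved with that difference. Ptgs2, or cyclooxygenase 2, had 9.44 on replicate 1 and 4.17 on replicate 2, against 4.25 and 3.97 in PE. Anxa1, an annexin, had 12.31 and 7.83 in Flk1(+) cells, against 9.29 and 8.75 in PE. Emp1, Prss23, Vnn1, Vgll3, Cryab and Lgals3 completed the 8 largest gaps, of between 4.55 and 5.17, all with replicate 1 on top. Of these 8 genes only Vnn1 and Cryab were called, and Vnn1, at -2.99, was at -0.50 without Flk1(+) replicate 2 (adjusted p = 0.45) and lost the call without either PE array (-2.89 and -3.10). Cryab, at -4.75, was at -7.07 without Flk1(+) replicate 1 and -2.43 without replicate 2. In the list of epithelial junctions and keratins 18 of 25 members were at least 2-fold higher on replicate 1 and none on replicate 2. The mean signal of that list was 9.39 and 7.69 in Flk1(+) cells, against 8.95 and 8.89 in PE. In the basement membrane list 9 of 20 members were at least 2-fold higher on replicate 1, and its mean signal was 9.11 and 8.22 in Flk1(+) cells, against 11.87 and 11.86 in PE. Nascent mesoderm factors ran the other way, with 3 of 15 at least 2-fold higher on replicate 2 and mean signals of 8.10 and 8.47, against 5.55 and 5.62 in PE. Of the 1898 called genes, 370 were at least 2-fold apart between the Flk1(+) arrays. Replicate 1 was the parental line and was scanned on another day and from another chip lot than replicate 2 and both PE arrays, so that line, experiment, scan and chip lot cannot be told apart.

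**Figure D4:**
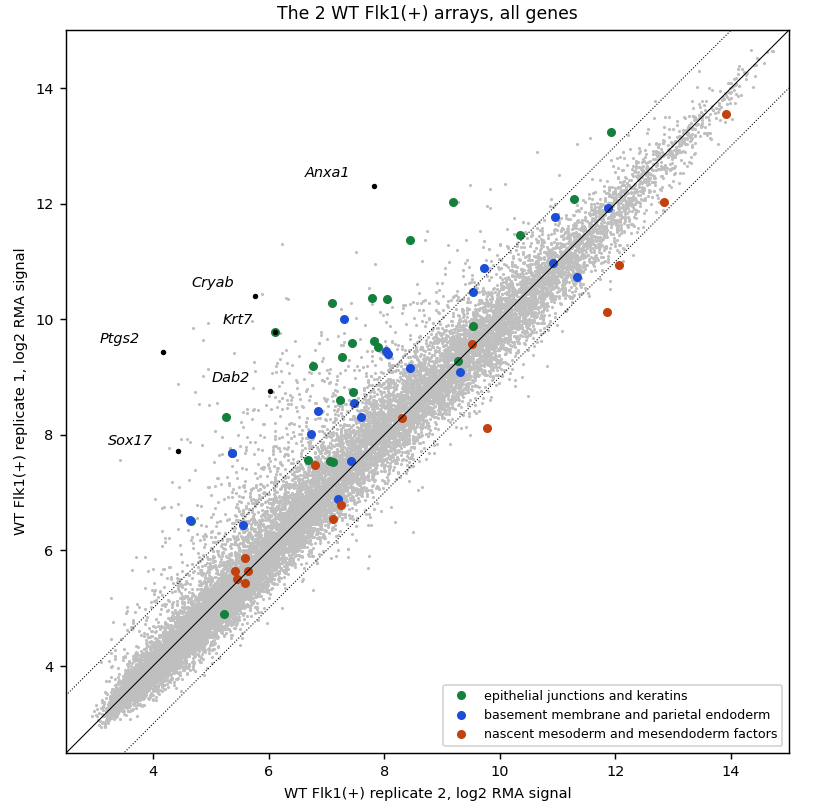
Log2 RMA signals of all genes on WT Flk1(+) replicate 1 (parental line, vertical axis) and replicate 2 (clone J1G4.2, horizontal axis), with dotted lines at 2-fold apart. Most epithelial genes (green) and many basement membrane genes (blue) lie above the upper dotted line, while nascent mesoderm factors (orange) lie near or below the diagonal.

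The same populations made from DKO cells differed at 2330 genes (12.8%), 1056 (5.8%) higher in Flk1(+) cells and 1274 (7%) lower. Of the deleted genes, Dnmt3b read 8.11 and 7.47 in DKO Flk1(+) cells and 6.64 and 6.85 in DKO PE, against 12.03 and 11.47 in WT Flk1(+) cells and 12.06 and 12.30 in WT PE. Dnmt3a read 6.49 and 6.79 in DKO Flk1(+) cells and 6.18 and 6.64 in DKO PE, against 8.81 and 8.43 in WT Flk1(+) cells and 8.30 and 8.58 in WT PE. Both were thus lower on all DKO arrays. Calls in the same direction were shared at 1409 genes, which is 74.2% of the WT calls and 60.5% of the DKO calls, and 7 genes were called in opposite directions. Aplnr, Sox7 and Cubn had near-equal changes in DKO cells, at 8.83, -6.11 and -6.51. The change itself differed between WT and DKO cells at 204 genes (1.12%), of which 103 were among the WT calls. This count was 99 to 417 when single arrays were left out, with 417 without WT Flk1(+) replicate 1, 349 without WT Flk1(+) replicate 2, 109 and 120 when WT PE replicate 1 or 2 was left out, and 99 for DKO PE replicate 2. Tests are for WT and DKO lines, and genotype and line cannot be told apart.

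The gene with the largest such difference was Meg3. It was higher in WT Flk1(+) cells than in WT PE, with 12.11 and 11.54, against 9.19 and 9.62. In DKO cells it was lower, with 5.48 and 6.62 in Flk1(+) cells, against 9.43 and 10.39 in PE. The WT difference of 2.42 lost its call without WT Flk1(+) replicate 1 (2.14) or WT PE replicate 1 (2.21). The change differed by 6.28 ± 0.85 (limma adjusted p = 0.0016). Thbd, or thrombomodulin, had 4.63 and 4.68 in DKO Flk1(+) cells, against 11.51 and 11.31 in DKO PE, a change of -6.76, against -1.78 in WT cells (-0.83 without WT Flk1(+) replicate 2). Sox2 was higher by 2.23 in DKO Flk1(+) cells than in DKO PE, against a difference of -2.001 in WT cells (-0.56 without WT Flk1(+) replicate 2), and Fgf4 and Tdgf1 also had the more positive change in DKO cells. Dazl, a germ cell gene, and Cck did not differ past the threshold in WT cells (-0.31 and -0.27), but were lower by 4.59 and 4.37 in DKO Flk1(+) cells than in DKO PE. For Tcim the difference also lay mostly in PE, with 8.28 and 7.90 in DKO PE, against 5.28 and 4.97 in WT PE. In Flk1(+) cells Tcim read 8.35 and 9.38 in DKO, against 9.58 and 9.95 in WT.

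**Figure D5:**
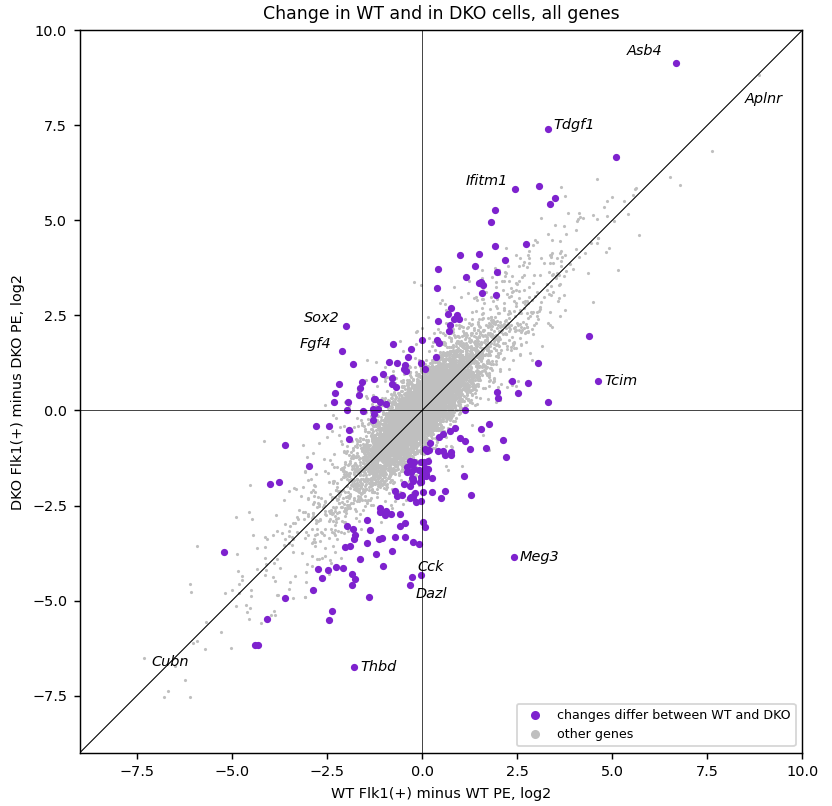
Flk1(+) minus PE on the log2 scale in WT (horizontal axis) and DKO cells (vertical axis), with 1 point per gene, purple for the 204 genes whose change differed between WT and DKO cells, and a diagonal of equal change. Aplnr and Cubn lie near the diagonal and Meg3, Thbd and Tcim far below it.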

How the data were processed

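RNA of 20 samples was labelled in 2 cycles and hybridized to Affymetrix mouse arrays. The deposited values are log2 signals of 45101 probe sets, which the authors summarized with RMA. That method subtracts background, equalizes the distributions of the arrays by quantiles and combines the probes of a set by median polish. The version and a detection limit are not given in the sources used here, so that large differences from low signals are not exact. Scan day and chip lot came from the deposited experiment files. Of the probe sets 34958 had 1 gene symbol, 932 several and 9211 none in the platform annotation. Each of 18194 genes was read by its probe set with the highest mean over 20 arrays. With limma 3.58.1 in R 4.3.3, a linear model of 10 groups was fitted to the 20 arrays together (10 residual and 4.54 prior degrees of freedom), and p-values were adjusted over all genes. The study's methods used SAM, in place of which limma was run. The number of arrays, 2 a group, limits the precision.

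Genes named were the 15 largest increases and decreases past the threshold with separated arrays, up to 8 members per list, Kdr, Pdgfra and Gata4, the 8 largest differences between WT and DKO changes and the 8 largest gaps between WT Flk1(+) arrays. Some further list members are given as examples. The comparison, its members and the 42 gene lists (745 entries, 707 measured, 29 genes in more than 1 list) were chosen with earlier results of these data known. Alternatives covered arrays, blocks, probe sets, scaling, priors and thresholds, and a chip lot block was added after seeing the data.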

Additional observations from a re-analysis of the deposited data

Results flagged for a closer look

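The change between Flk1(+) cells and PE differed between WT and DKO cells, by limma's test of the difference, at a number of the genes named or listed. Values are the WT change minus the DKO change on the log2 scale, and no explanation was tested.

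The difference was positive, with the WT change the more positive one, at Meg3 (6.28), Thbd (4.98), Dazl (4.28), Cck (4.10), Tcim (3.86), the coagulation initiator F3 (2.91), Plagl1 (2.65), Fst (2.56), Egln3 (2.03), Myh7 (1.87), Gsc (1.81), Timp2 (1.74), Cyp26a1 (1.73) and Stra6 (1.47). At F3, Timp2 and Myh7 both changes were negative and the DKO one was the more so, with -5.27, -4.20 and -4.12 in DKO cells, against -2.36, -2.46 and -2.25 in WT cells.

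The difference was negative at the remaining genes. Among genes of signalling and pluripotency these were Sox2 (-4.23), Tdgf1 (-4.10), Fgf4 (-3.67), Lefty2 (-3.14), Etv5 (-3.10), Bmp6 (-2.75), Hand2 (-2.42), Fgfr1 (-1.63) and Runx1 (-1.58). Tdgf1 had a change of 7.40 in DKO cells, against 3.31 in WT cells. In WT cells only 2 of 4 probe sets of Fgf4 were lower in Flk1(+) cells (-2.11 to 0.20), and 5 of 6 of Runx1 (-1.27 to 0.05). At Sox2, Tdgf1, Lefty2 and Etv5 the DKO PE arrays lay below the WT PE arrays, while the Flk1(+) arrays of both lines overlapped. The others were Ifitm1 (-3.38), the imprinted Mest (-3.35), Trh (-3.05), Asb4 (-2.47), Tfpi (-2.37), the germline genes Ddx4 (-2.16) and Tdrd12 (-2.08), St6gal1 (-1.57), Ifitm2 (-1.51), Dpp4 (-1.48), Dnmt3b (-1.47), itself deleted in DKO cells, and Mttp (-1.16).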

How the results depend on the processing

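With WT differences of at least 4-fold required, 578 genes passed in place of 1898, 280 higher and 298 lower, and 754 passed in DKO cells and 83 for the difference between both. A test against a 2-fold difference passed 612 genes, 293 higher and 319 lower, with 853 in DKO cells and 17 for the difference. Leaving out single arrays gave 1686 to 2207 WT calls, 734 to 1062 higher and 865 to 1401 lower, 2156 to 2488 DKO calls and 99 to 417 genes for the difference. The numbers of the replicates did not pair the arrays (correlation of deviations 0.05), and a replicate block gave 1909 calls with 20 arrays and 1839 with the 4 alone. Scan day as a block gave 1966 calls, 1784 of them shared. Chip lot as a block, an alternative chosen after seeing the data, gave 2142, 839 higher and 1303 lower. The 4 arrays fitted alone gave 1534, and the mean over probe sets 1425. Median centring gave 792 higher and 1116 lower. Without probe sets whose identifiers end in _x_at, _s_at or _a_at, 1641 genes were called. In that setting Hnf4a (0.16), Mt1 (0.12), Cryab (0.044), Anxa2 (0.14) and Cavin1 (-0.14) changed direction. The cause was not tested. Of 224 called genes picked by the naming rule above, 47 lost the call without at least 1 array. The further list members given as examples were not among the 224.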
